A study of Mus musculus with 30 samples.

Results

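The receptor tyrosine kinases of glial progenitors, 9 genes, were followed over 30 mouse arrays. They were the EGF receptor family (Egfr, Erbb2, Erbb3 and Erbb4), the FGF receptors Fgfr1 and Fgfr2, the neurotrophin receptor Ntrk2, the hepatocyte growth factor receptor Met and the IGF receptor Igf1r. Every probe set that the platform annotation gives to one of these 9 symbols was taken, which gave 32 of the 45101 probe sets on the array and 9 of 18194 genes with a probe set of their own symbol alone. No measured value entered the assignment of probe sets to genes, but the 9 genes were chosen with earlier results of these data known.

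The study compared neural progenitor cultures and embryonic tissue with and without the Olig transcription factors. The 22 neurosphere arrays came from lines started from the ganglionic eminences of mouse embryos at E14.5, on a mixed Swiss and C57BL/6J background. Each of these lines, controls included, lacked Ink4a/Arf, was grown with EGF and bFGF at 20 ng/mL each, and carried a human EGFRvIII retrovirus given at passage 1 and selected with puromycin. EGFRvIII is a truncated, constitutively active human EGF receptor found in glioblastoma. Untransduced here means without a further virus: 3 lines were Olig1/2+/+ (wild-type), 3 were Olig1/2+/- (heterozygous) and 6 were Olig1/2-/- (null). A GFP or an Olig2 retrovirus was given at passage 3, with blasticidin selection, to 3 of the null lines (lines 12, 13 and 14) and to both of the heterozygous lines 11 and 15, so that the GFP, Olig2 and untransduced arrays of a number come from one line. Cells were harvested between passages 4 and 15, and the passage of each array is not given. The 8 tissue arrays came from E18.5 embryos, 4 of forebrain and 4 of spinal cord, with 2 embryos labelled Olig2 -/- (null) and 2 labelled Olig2 +/- (heterozygous), each giving both tissues. The design text names the tissue genotypes as Olig1/2, and the tissues carry no stated Ink4a/Arf deletion or virus.

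Receptor tyrosine kinases span the cell membrane, pair up when a ligand binds, phosphorylate each other and recruit adaptors that start the Ras-MAP kinase and PI3 kinase cascades. EGF and FGF are the mitogens that keep neural progenitors dividing in culture, neuregulins act through the ErbB receptors on Schwann cells and oligodendrocyte precursors, and BDNF acts through Ntrk2 (TrkB) on neurons. Ntrk2 is known for 2 main classes of transcript, one for the full-length kinase and one for a truncated receptor without the kinase domain that is typical of astrocytes and progenitors. Olig1 and Olig2 are basic helix-loop-helix factors, which bind DNA at E-boxes, and are needed for oligodendrocytes and motor neurons.

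Values are MAS5 signals, the authors' deposited intensities, which were scaled so that each array has a trimmed mean of 500. Differences are in log2(signal + 16), a scale that understates changes of dim probe sets, and were tested in limma with Benjamini-Hochberg adjustment over all probe sets tested. A probe set was called at an adjusted p under 0.05. Probe sets were tested only where their signal reached the array's median on enough arrays to fill the smallest group compared. Of the 32 probe sets, 20 were tested among untransduced neurospheres, 22 among virus-treated neurospheres, 24 among tissues and 27 between neurospheres and tissue. The main probe set of a gene is the one with the highest mean log2 signal over all 30 arrays. Levels of different probe sets are not compared, since the probes differ in brightness.

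The genes whose signal differed most between Olig genotypes in culture were Ntrk2 and Fgfr2, and Egfr carries the virus question, so their upstream sequences are shown. RefSeq (GRCm38.p6) gave a promoter window for 7 of the 9 genes, of which 5 reach at least 50 bases upstream of the annotated gene. The bases that lie before the gene boundary are printed 5' to 3' on the gene's strand, with each match to the E-box motif CANNTG (its own reverse complement, so both strands are covered) in capitals.
Ntrk2, chr13:58806319-58806471, plus strand: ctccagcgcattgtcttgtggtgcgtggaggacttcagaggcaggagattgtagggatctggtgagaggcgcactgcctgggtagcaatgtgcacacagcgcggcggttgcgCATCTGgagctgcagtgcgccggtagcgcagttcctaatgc
Fgfr2, chr7:130266809-130267058, minus strand: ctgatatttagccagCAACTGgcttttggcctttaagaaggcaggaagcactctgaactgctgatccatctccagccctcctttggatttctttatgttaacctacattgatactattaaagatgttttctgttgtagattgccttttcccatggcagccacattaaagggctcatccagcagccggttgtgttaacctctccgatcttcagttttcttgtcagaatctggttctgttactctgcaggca
Egfr, chr11:16751953-16752202, plus strand: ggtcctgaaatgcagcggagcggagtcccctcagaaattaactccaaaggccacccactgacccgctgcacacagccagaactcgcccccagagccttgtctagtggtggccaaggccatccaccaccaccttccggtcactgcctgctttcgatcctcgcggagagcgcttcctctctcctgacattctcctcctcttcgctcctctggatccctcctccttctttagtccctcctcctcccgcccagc
The Ntrk2 window of 153 bases held 1 match, CATCTG, which starts 41 bases before the gene boundary, and 49.9% of all 32851 mouse promoter windows hold a match in a stretch of that length. The Fgfr2 window of 250 bases held 1 match, CAACTG, 235 bases before the boundary, and the Egfr window of the same length held none; 66.2% of all windows of 250 bases hold one. A match describes letters only.

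The deposited signals of the targeted genes were read first. Among untransduced cultures the Olig1 probe set lay at 7064 to 9509 in the 6 null lines and at 20361 to 30893 in the wild-type and heterozygous lines. The Olig2 probe set lay at 6177 to 11577 in the null lines and at 11500.1 to 18048 in the others, so that these ranges overlapped. Null arrays labelled Olig2 virus read 4450.3 to 10011 on the Olig2 probe set and those labelled GFP 8279 to 10275, so this probe set did not show the virus. The sources used here do not place its probes relative to the deletion or the virus, and the virus labels could not be checked from it. In null spinal cord the Olig2 probe set read 23.8 and 58.5, against 335 and 736 in heterozygous cord. In every neurosphere array 5 or 6 of 6 neural progenitor markers reached the array's median, and their summed signal was 66336 to 95890. Median signals ran from 129 to 217 and replicates of a group correlated at 0.926 to 0.945. The GFP array of null line 13 had the lowest median signal, a Gapdh 3'/5' log2 ratio of 0.43 against -0.33 to -0.04 on all other neurosphere arrays, and an A260/A280 ratio of 2.83. In these bulk samples, fewer cells of a type and less RNA per cell cannot be told apart.

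Null cultures had less Ntrk2 and more Fgfr2, Fgfr1 and Egfr signal than cultures that keep Olig genes. Of the 20 probe sets tested, 5 were called higher and 3 lower in the 6 null lines than in the mean of the wild-type and heterozygous groups, and 6.61% of all 25616 probe sets tested were called. By main probe set, 3 of 6 tested genes rose (Egfr, Fgfr1 and Fgfr2) and 1 fell (Ntrk2), against 7.64% of all genes called. The median difference of the 20 probe sets was 0.20, beside -0.03 over all probe sets tested.

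Ntrk2 was the receptor with the lowest p. Its main probe set, 1420838_at, read 5336, 4373 and 5454 in the wild-type lines and 3328, 3805 and 4218 in the heterozygous lines. The 6 null lines ran from 1341 (line 14) to 2881 (line 21), with line 12 at 1841, line 24 at 2124, line 16 at 2204 and line 13 at 2210.3. Every null line lay below every line with an Olig allele. The null lines were lower by 1.08 on the log2 scale (difference -1.08, SE 0.15, limma adjusted p = 0.00039), and the difference stayed between -1.18 and -0.96 when each of the 12 arrays was left out. Against the wild-type lines alone the difference was -1.29 (limma adjusted p = 0.0006), and against the heterozygous lines alone -0.87 (adjusted p = 0.017), a call that was lost without heterozygous line 15 or 26. Heterozygous lines all lay below wild-type lines, but this difference of -0.42 (SE 0.21) was not called (limma adjusted p = 0.76).

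The neighbouring probe sets gave the same picture with different strength. Probe set 1435196_at read 3465 to 4281 in wild-type, 2548 to 2608 in heterozygous and 1157 to 2153 in null lines, a difference of -0.85 (SE 0.14, limma adjusted p = 0.0013). Probe set 1420837_at read 518 to 622, 353 to 391 and 126 to 359 in the same groups, with a difference of -0.79 (SE 0.22, adjusted p = 0.045). The call on 1420837_at was lost in 8 of 12 omissions of 1 array (any wild-type or heterozygous line, or null line 12 or 21) and without the filter on dim probe sets. The main probe set and 1435196_at correlated at 0.97 over the 22 neurosphere arrays, which share lines and scaling.

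Fgfr2 moved the other way. Its probe set 1420847_a_at read 339, 340.0 and 227 in wild-type lines, 267, 274 and 210.3 in heterozygous lines, and from 458 (line 12) to 738 (line 14) in null lines, with the others at 479 (line 24) to 720 (line 13). No null line overlapped the others. The difference was 1.04 (SE 0.16, limma adjusted p = 0.0011) and lay between 0.95 and 1.10 with each array left out. The main probe set 1433489_s_at read 547 to 825 in the wild-type and heterozygous lines and 823 to 1735 in null lines, so that only line 21 (823) lay within the range of the other groups. It rose by 0.75 (SE 0.17, limma adjusted p = 0.015). Fgfr2 was also called on both probe sets against the heterozygous lines (0.87 and 1.16), and only on 1420847_a_at against the wild-type lines (0.92, adjusted p = 0.013; 0.64, adjusted p = 0.099, on the main probe set). The call on the main probe set against heterozygous lines was lost in 7 of the 9 omissions (any heterozygous line, or null line 12, 13, 14 or 16) and, with no filter, had an adjusted p of 0.053. The call on 1420847_a_at against the wild-type lines was lost without wild-type line 20.

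**Figure D1:**
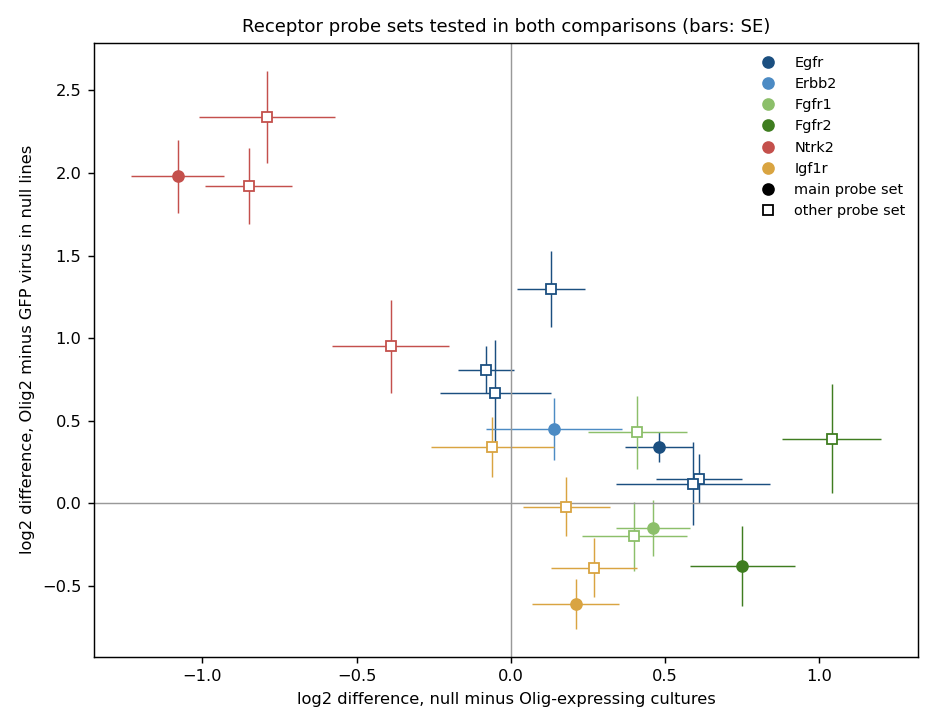
Log2 differences, with SE, of the 20 receptor probe sets tested in both comparisons: null minus Olig-expressing untransduced cultures (horizontal axis) and Olig2 minus GFP virus in null lines (vertical axis). The 3 Ntrk2 probe sets called lower in null cultures lie at the upper left (for example -1.08 and 1.98), the Fgfr2 probe sets lie to the right (0.75 and 1.04), and Egfr probe sets are split between right and upper centre.

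Fgfr1 followed Fgfr2 with a smaller difference. Its main probe set 1424050_s_at read 1921 to 2573 in lines with an Olig allele and 2469 to 3999 in null lines, with only line 21 (2469) inside the other range. The rise was 0.46 (SE 0.12, limma adjusted p = 0.028), and it was no longer called in 7 of 12 omissions (wild-type line 2 or 3, heterozygous line 26, or null line 12, 13, 16 or 24). The other probe sets, 1425911_a_at and 1436551_at, differed by 0.41 and 0.40 and were not called (adjusted p = 0.17 and 0.20).

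Egfr, the receptor for the EGF in the medium, gave results that depended on the probe set. The main probe set 1435888_at read 3814, 4259 and 4265 in wild-type lines, 3321, 4787 and 4901.5 in heterozygous lines, and 4797 (line 21) to 6667 (line 16) in null lines. Only line 21 lay within the range of the other groups. The rise was 0.48 (SE 0.11, limma adjusted p = 0.016). Probe set 1424932_at rose by 0.61 (SE 0.14, adjusted p = 0.015), with 1443 to 1512 in wild-type, 1093 to 2127 in heterozygous and 2103 to 2778 in null lines. Both rises held in all 12 omissions of 1 array. By contrast 1451530_at (0.13, adjusted p = 0.58) and 1460420_a_at (-0.08, adjusted p = 0.73), which were also bright in culture, were not called. The first of these read 780.4 to 1250 outside the null group and 969 to 1262 within it, and the second 3161 to 4641 and 3163 to 3926. Against the wild-type lines alone, 1435888_at and 1424932_at were called (0.51 and 0.67), but these calls were lost in 8 and 5 of 9 omissions (for both, any wild-type line or null line 12 or 14, and for 1435888_at also null line 13, 16 or 24). Without the filter the call on 1435888_at was lost as well (adjusted p = 0.059). Against the heterozygous lines neither was called.

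The remaining tested receptors, Erbb2 and Igf1r, were not called between genotypes. Erbb2, the ErbB family member without a ligand of its own, read 179 to 384 in lines with an Olig allele and 157 to 508 in null lines, a difference of 0.14 (SE 0.22, limma adjusted p = 0.80). Igf1r, read by 1452982_at, was 998, 1644 and 1357 in wild-type, 2110.2, 1939 and 2352 in heterozygous and 1467 to 2421 in null lines. Its heterozygous lines lay above all wild-type lines, with a difference of 0.70 (SE 0.20) that did not pass the adjustment (limma adjusted p = 0.48). Against wild-type lines, 3 probe sets were called higher and 3 lower in null lines (5.45% of all probe sets; the call on Ntrk2 1420837_at was lost without any wild-type line or null line 12), and by main probe set 1 gene rose and 1 fell (6.29% of all genes). Against heterozygous lines 2 were higher and 1 lower (2.68% of all). None of the 20 was called between heterozygous and wild-type lines in limma, beside 0.00781% of all probe sets and 0.00832% of all genes. Of the 20, 3 had an unadjusted p under 0.05, as had 1714 of all 25616 probe sets tested.

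**Figure D2:**
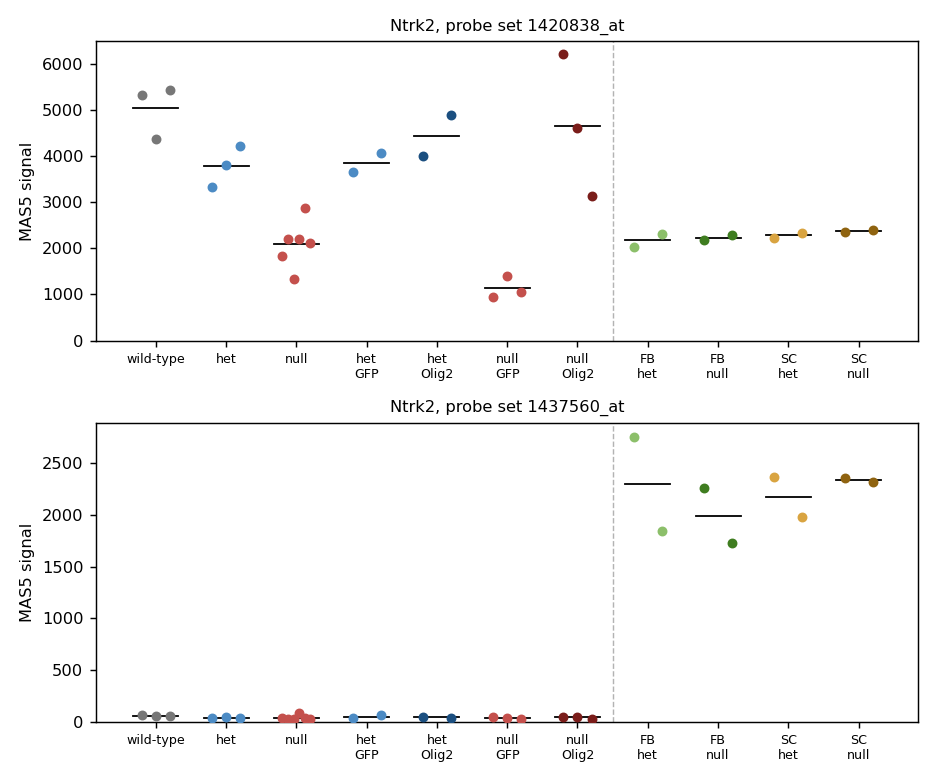
MAS5 signal of 2 Ntrk2 probe sets in each array (points) with the group mean (line), for neurospheres left of the dashed line and forebrain (FB) and spinal cord (SC) right of it; het is heterozygous. On 1420838_at the null (1341 to 2881) and null GFP (956 to 1410) cultures are low and the null Olig2 cultures (3145 to 6237) are high; on 1437560_at all 22 neurosphere arrays lie at or below 82.1 and all tissue arrays at or above 1725.

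In null lines, arrays labelled Olig2 virus had more Ntrk2 signal than arrays labelled GFP virus. Of the 22 probe sets tested, 6 were called higher and 1 lower, beside 7.65% of all 26734 probe sets, and by main probe set Ntrk2 and Egfr were higher and Igf1r lower, beside 7.53% of all genes. The median difference was 0.37 over the 22 probe sets and 0.11 over all probe sets tested. This shift of all probe sets depended on scaling: it was 0.00 after quantile normalization and -0.01 when arrays were scaled to their 75th percentile.

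Ntrk2 on 1420838_at read 956 in line 12, 1409.5 in line 13 and 1054 in line 14 with GFP, and 6237, 4612 and 3145 in the same lines with Olig2 virus. The groups did not overlap. Against the wild-type cultures (4373 to 5454), the null Olig2 arrays lay above in line 12, within in line 13 and below in line 14. The difference was 1.98 (SE 0.22, limma adjusted p = 0.00094), with 2.69, 1.70 and 1.56 in lines 12, 13 and 14. Probe set 1435196_at (1.92, SE 0.23, limma adjusted p = 0.0012) rose as well, and 1420837_at was called higher too (limma adjusted p = 0.0013). With GFP virus, 1420837_at read 122.9, 63.2 and 99.6 in lines 12, 13 and 14, each below the array's median. It passed the filter through other arrays, so the size of that difference is not given. With the Gapdh 3'/5' ratio as a covariate the main difference was 2.28 (limma adjusted p = 0.008), and without the GFP array of line 13 it was 2.14 (adjusted p = 0.002).

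The GFP arrays themselves lay below the same lines' untransduced arrays. Ntrk2 with GFP virus was lower than without by 0.93 (line 12, difference -0.93), 0.64 (line 13, -0.64) and 0.34 (line 14, -0.34) on the log2 scale. Set against those untransduced arrays, an alternative chosen after the values were seen, the Olig2 arrays were still higher on 1420838_at (1.34, SE 0.23, limma adjusted p = 0.01), 1435196_at (1.18, adjusted p = 0.019) and 1420837_at (1.30, adjusted p = 0.046). In that comparison 1062 of 26582 probe sets were called, and Ntrk2 was the only member gene among them.

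The precision of the virus comparisons is low. In simulated data with the means and spread of these arrays, 31% of log2 differences of 1 and 68% of 2 were called in null lines. The simulation changed 93 probe sets of each size among 26969 tested, fewer than the 2045 called in the data. Its adjustment was therefore stricter, and these shares may be too low. Heterozygous lines, which keep an Olig allele, had fewer arrays, 2 with each virus, and no member was called in them. Ntrk2 on 1420838_at read 3658 and 4078 with GFP and 4005 and 4902 with Olig2 virus, ranges that overlap, for a difference of 0.20 (SE 0.27, limma adjusted p = 1). None of the 22 probe sets was called there in limma, beside 0.00% of all probe sets. Of the 22, 0 had an unadjusted p under 0.05, as had 1008 of all 26734 probe sets tested. The test of the difference between null and heterozygous lines gave 1.79 for Ntrk2 (SE 0.35), which did not pass adjustment (limma adjusted p = 0.12). Without the Olig2 array of null line 14 it was 2.04 and was called (limma adjusted p = 0.019). No member was called in that test, beside 0.0524% of all probe sets. Of the 22, 6 had an unadjusted limma p under 0.05, as had 2797 of all 26734 probe sets tested. Under GFP virus the null lines had less Ntrk2 than the heterozygous lines by 1.77 (difference -1.77, SE 0.25, limma adjusted p = 0.0059), with probe sets 1420837_at and 1435196_at called too. These 3 calls in 22 tested, all lower, stand beside 1.43% of all probe sets and, for the 1 gene called by main probe set, 1.61% of all genes. All 3 were lost when either heterozygous GFP array (line 11 or 15) was left out. The call on 1420837_at was also lost without the null GFP array of line 13 or 14, without the filter and with the Gapdh covariate.

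With Olig2 virus, 2 Egfr probe sets rose that had not been called between genotypes. Probe set 1451530_at read 708, 379 and 574.5 in lines 12, 13 and 14 with GFP and 1564, 1048 and 1469 with Olig2 virus, a difference of 1.30 (SE 0.23, limma adjusted p = 0.0088). Probe set 1460420_a_at read 2453, 1877 and 2647 with GFP and 4326, 3756 and 4046 with Olig2 virus, a difference of 0.81 (SE 0.14, adjusted p = 0.0074). Neither pair of groups overlapped, and both calls held when each of the 6 arrays was left out. The GFP arrays were the ones that stood apart: the untransduced arrays of the same lines read 969 to 1262 on 1451530_at and 3436 to 3926 on 1460420_a_at. With untransduced arrays as the control, the Olig2 differences were 0.25 (adjusted p = 0.49) and 0.13 (adjusted p = 0.54), neither called.

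The Gapdh 3'/5' log2 ratio moved with this result. It was -0.09, 0.43 and -0.04 on the null GFP arrays and between -0.25 and -0.20 on the null Olig2 arrays. With the ratio as a covariate the differences were 0.83 on 1451530_at (limma adjusted p = 0.15) and 0.53 on 1460420_a_at (adjusted p = 0.12), both no longer called. The part of RNA quality in the result was not tested beyond this. Without the GFP array of line 13 both stayed called, at 1.05 (adjusted p = 0.022) and 0.66 (adjusted p = 0.015).

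On the main Egfr probe set, 1435888_at, null lines read 5172, 5571 and 5308 with GFP and 6837, 6499.6 and 7035 with Olig2 virus, without overlap. This difference of 0.34 (SE 0.09) had a limma adjusted p of 0.048. It was no longer called when any 1 of the 6 arrays was left out, nor with the line as a block (adjusted p = 0.06), the Gapdh covariate (0.17), no filter (0.082), scaling to the 75th percentile (0.22 on the log2 scale, with an adjusted p of 0.22) or the untransduced control (0.15 on the log2 scale, adjusted p = 0.56). GFP virus went with lower signal than untransduced in all 3 null lines (-0.19, -0.08 and -0.31) and with higher signal in both heterozygous lines (0.96 and 0.44). The difference of these GFP effects, tested after the values were seen, was -0.89 (SE 0.20) and did not pass adjustment (limma adjusted p = 0.60).

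**Figure D3:**
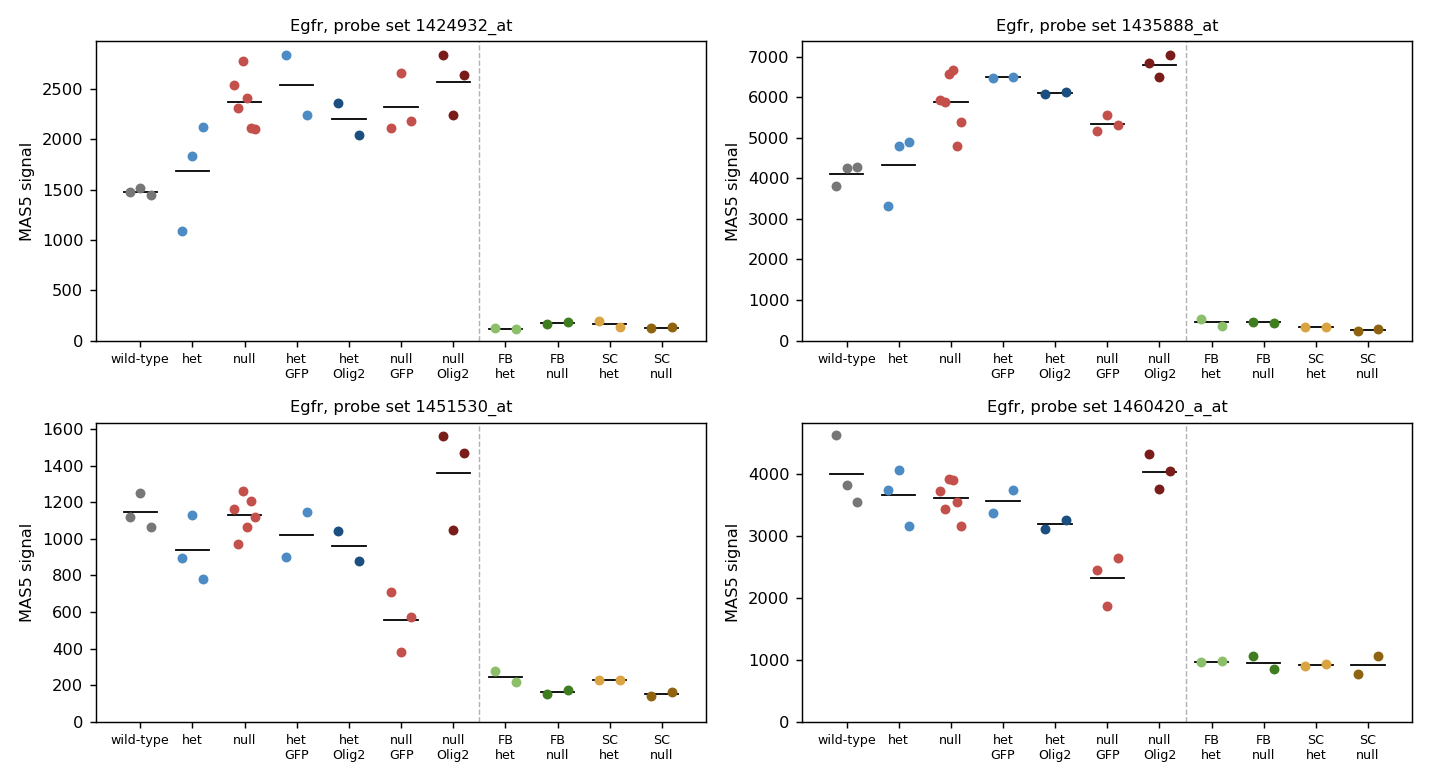
MAS5 signal of 4 Egfr probe sets in each array (points) with the group mean (line), for neurospheres left of the dashed line and forebrain (FB) and spinal cord (SC) right of it; het is heterozygous. The upper 2 probe sets are higher in null than in wild-type cultures (4797 to 6667 against 3814 to 4265 on 1435888_at), and the lower 2 are lowest among neurospheres in the null GFP cultures (379 to 708 on 1451530_at).

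Egfr probe sets therefore fell into 2 patterns among neurospheres. Over the 22 arrays 1435888_at correlated at 0.91 with 1424932_at, but at 0.16 with 1451530_at and at -0.03 with 1460420_a_at. All 4 were higher in heterozygous neurospheres than in heterozygous forebrain, which carries no virus, by 9.32-fold on 1435888_at, 3.69-fold on 1460420_a_at and 3.60-fold on 1451530_at. Probe set 1424932_at was also called, but it reached the array's median on 0 of 8 tissue arrays and passed the filter through the neurospheres alone, so its fold is not given. Every neurosphere array carries the human EGFRvIII virus, so there is no culture without it, and the virus, the culture and the endogenous gene cannot be told apart in these folds. The sources used here do not say which probes could read the human transcript or lie in the stretch that EGFRvIII lacks. Of the other 3 Egfr probe sets, 1432647_at read 224 to 882 in neurospheres, was not called between genotypes or viruses, and was higher in null neurospheres than in null forebrain (1.42, limma adjusted p = 0.0019). Probe set 1454313_at read 99.6 to 291 in neurospheres and was called in no comparison, and 1457563_at was not tested.

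Igf1r, FGF receptors and Erbb2 completed the virus comparison. Igf1r on 1452982_at fell in null lines from 2344, 3128 and 2409 with GFP to 1635, 1561 and 1943 with Olig2 virus, a difference of -0.61 (SE 0.15, limma adjusted p = 0.029). The groups did not overlap, but with the same lines' untransduced arrays (1965, 1821 and 1467) as the control the difference was -0.03 (adjusted p = 0.94). The call was lost without the Olig2 array of line 12, the GFP array of line 13 or the Olig2 array of line 13, with the Gapdh covariate (-0.40, adjusted p = 0.34) and after quantile normalization (-0.51, adjusted p = 0.052). The other Igf1r probe sets were not called. For Fgfr2 the differences were -0.38 on 1433489_s_at and 0.39 on 1420847_a_at, neither called (adjusted p = 0.34 and 0.49). With untransduced arrays as the control they were -0.71 (adjusted p = 0.068) and -0.46 (adjusted p = 0.32), so that the sign on 1420847_a_at turned with the control. Fgfr1 (-0.15, adjusted p = 0.60) was not called, nor was Erbb2 (0.45, SE 0.19, limma adjusted p = 0.16). GFP virus against no further virus gave no call among the 22 probe sets in limma, beside 0.00752% of all probe sets. Of the 22, 6 had an unadjusted p under 0.05, as had 3397 of all 26596 probe sets tested.

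**Figure D4:**
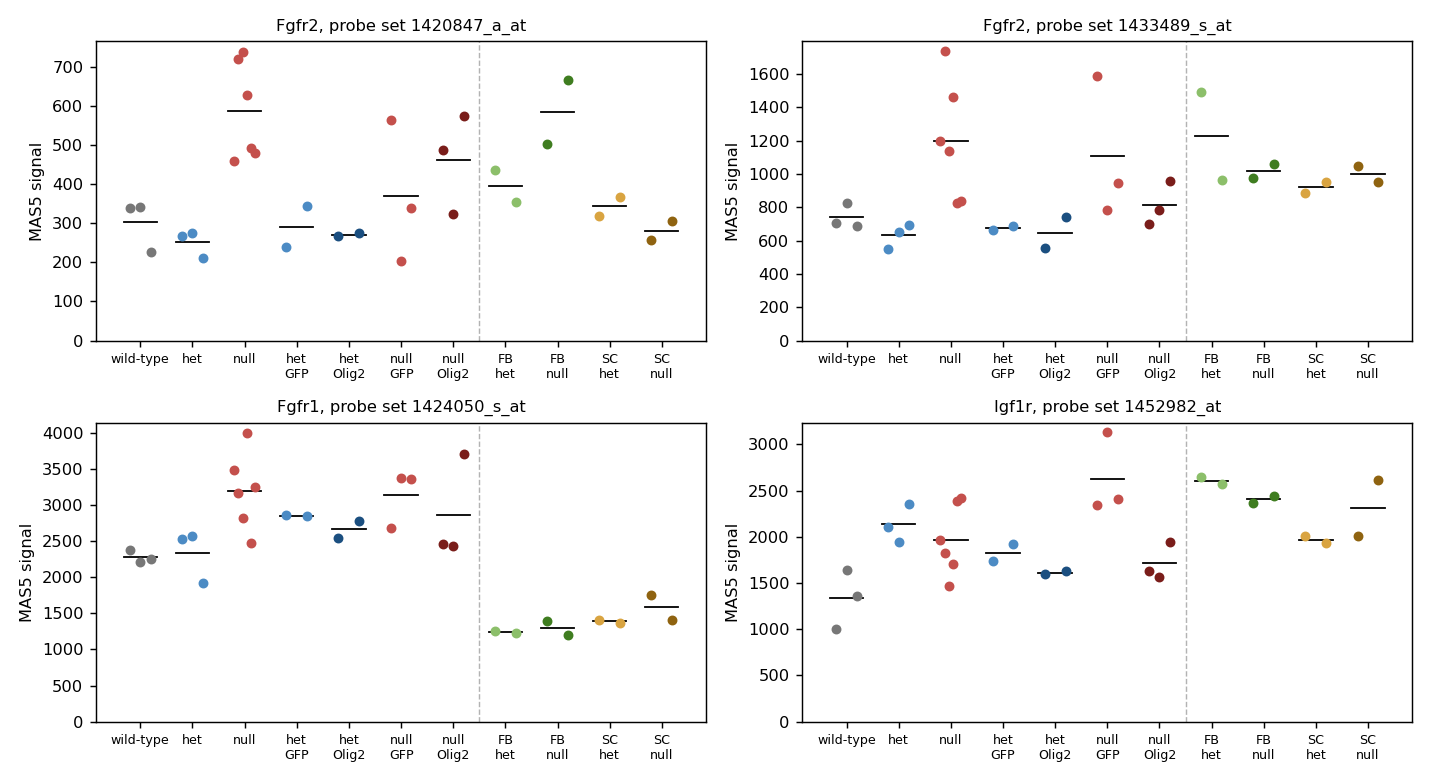
MAS5 signal of both Fgfr2 probe sets called between genotypes, and of the main Fgfr1 and Igf1r probe sets, in each array (points) with the group mean (line), for neurospheres left of the dashed line and forebrain (FB) and spinal cord (SC) right of it; het is heterozygous. On Fgfr2 1420847_a_at the 6 null lines (458 to 738) lie above all wild-type and heterozygous lines (210.3 to 340.0), and among neurosphere groups the mean of Igf1r is highest in the null GFP cultures (2344 to 3128).

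In E18.5 tissue no receptor was called between Olig genotypes. Of the 24 probe sets tested, 0 were called in forebrain and 0 in spinal cord by limma. Beside these, 0.0154% and 0.0810% of all probe sets, and 0.0243% and 0.0972% of all genes, were called. In each tissue 1 of the 24 had an unadjusted p under 0.05, as had 1717 and 1528 of all 25925 probe sets. The limma test of a different genotype effect in the 2 tissues also called 0 members, beside 0.00386% of all probe sets. Of the 24, 2 had an unadjusted p under 0.05, as had 1574 of all 25925. Ntrk2 on 1420838_at read 2180.3 and 2283 in null and 2033 and 2315 in heterozygous forebrain, and 2356 and 2399 in null and 2237 and 2334 in heterozygous cord. The differences of 0.04 (SE 0.10) and 0.06 (SE 0.10) were within their errors. In cord, Erbb3, the neuregulin receptor of oligodendrocyte precursors and Schwann cells, read 235 and 337 in null and 395 and 366 in heterozygous embryos. This difference of -0.41 (SE 0.35) was not called (limma adjusted p = 0.96). The summed signal of 6 oligodendrocyte lineage markers in the same arrays was 1245 and 1463 in null and 6121 and 6827 in heterozygous cord. With 2 embryos a group, the precision is low: in simulated data with the means and spread of these arrays, 30% of differences of 1 and 65% of differences of 2 on the log2 scale were called in cord.

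Between the tissues the receptors differed more. Spinal cord had more Erbb3 and Erbb2 and less Met signal than forebrain. Of 24 probe sets tested, 4 were called higher and 6 lower in cord, beside 37.7% of all 25925 probe sets. The 10 of 24 receptor probe sets called stand close to that background. Erbb3 read 95.6, 110.2, 215 and 119 in forebrain and 235, 337, 395 and 366 in cord, without overlap, and was called higher in cord (limma adjusted p = 0.0026). In forebrain it reached the array's median only in heterozygous embryo 3 and passed the filter mainly through cord, so the size of that difference is not given. Erbb2 read 97.6 to 140 in forebrain and 182 to 246 in cord, also without overlap, and was called higher in cord (limma adjusted p = 0.034). It reached the array's median on no forebrain array and passed the filter through cord, so the size of that difference is not given. That call was lost with the embryo as a block (adjusted p = 0.057) and without any 1 array other than the forebrain of heterozygous embryo 3.

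Met, the receptor of hepatocyte growth factor, was lower in cord. Its probe set 1434447_at read 391, 396, 301 and 537 in forebrain and 179.8, 64.7, 76.3 and 193 in cord. It was called lower in cord (limma adjusted p = 0.0038). The cord arrays all lay below their array's median on this probe set, so that it passed the filter through forebrain. The size of that difference is therefore not given. Met's main probe set by mean signal, 1422990_at, the single probe set of Erbb4 and the second of Erbb3, 1452482_at, reached the array's median on no array, so none of these was tested. Met and Erbb4 read 7.2 to 191 and 5.4 to 128 there over all arrays.

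For 4 other receptors, the tissue difference varied between probe sets in its size or in whether it was called, and for Fgfr1 also in sign. Igf1r fell in cord on 1426565_at, from 1131 to 1290.0 in forebrain to 499 to 721 (-1.05, SE 0.11, limma adjusted p = 4.1e-05), and on 1446303_at (-0.49, adjusted p = 0.045), while its main probe set differed by -0.24 (adjusted p = 0.058, and 0.045 with the embryo as a block). Fgfr1 fell on 1425911_a_at from 991 to 1334 in forebrain to 785 to 863 in cord (-0.59, SE 0.11, adjusted p = 0.0014), but not on its main probe set (0.22, adjusted p = 0.10). Fgfr2 fell on 1420847_a_at (-0.60, adjusted p = 0.012; lost without the forebrain of null embryo 2) and was not called on 1433489_s_at (-0.20). Ntrk2 rose on 1435196_at from 637 to 886 in forebrain to 1229 to 1440.2 in cord (0.90, SE 0.11, adjusted p = 8e-05) and on 1435305_at (0.42, adjusted p = 0.0082), with 0.08 on the main probe set. Egfr's main probe set fell from 366 to 538 in forebrain to 247 to 328 in cord (-0.57, adjusted p = 0.018), a call lost without the forebrain of null embryo 1 or heterozygous embryo 3 or the cord of null embryo 1. The call on Igf1r 1446303_at was lost in 5 of 8 omissions (the forebrain of null embryo 1 or 2 or heterozygous embryo 3, and the cord of null embryo 1 or heterozygous embryo 4) and without the filter.

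The makeup of the tissue samples differed as well. The summed signal of 4 meningeal and fibroblast markers was 9653 to 17609 in cord and 1197 to 1642 in forebrain, that of 7 astrocyte markers was 27488 to 31107 and 6668 to 7356, that of 3 Schwann and neural crest markers 605 to 983 and 302 to 575, and that of 6 neuronal markers 58104 to 61281 and 66358 to 69302. The Gapdh 3'/5' log2 ratio was 0.04 to 0.37 in cord and -0.22 to -0.07 in forebrain. Their part in the tissue differences was not tested.

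**Figure D5:**
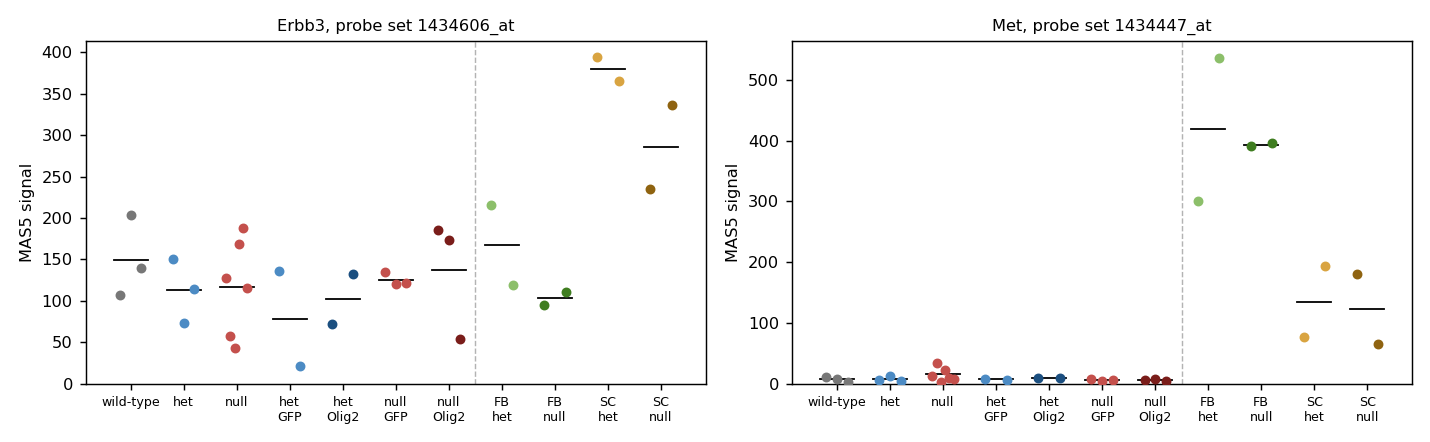
MAS5 signal of Erbb3 (left) and of Met probe set 1434447_at (right) in each array (points) with the group mean (line), for neurospheres left of the dashed line and forebrain (FB) and spinal cord (SC) right of it; het is heterozygous. Erbb3 is highest in spinal cord (235 to 395), and Met is highest in forebrain (301 to 537) and near 0 in all neurospheres (2.8 to 34.4).

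Egfr, Erbb2 and Fgfr1 were higher and Met lower in neurospheres than in forebrain. In heterozygous samples 10 of 27 probe sets were called higher and 7 lower in neurospheres, beside 45.6% of all 30200 probe sets, and in null samples 10 and 6, beside 45.9%. By main probe set 4 genes were higher and 1 lower in heterozygous samples (50.1% of all genes called) and 3 higher and 0 lower in null samples (50.8%). These contrasts join culture, the EGFRvIII virus, Ink4a/Arf loss, age and dissection, and neuronal marker sums were 650 to 7046 in neurospheres and 58104 to 69302 in tissue. Egfr was 3.22 higher on the log2 scale in heterozygous neurospheres and 3.65 higher in null neurospheres on its main probe set. Fgfr1 was higher by 0.89 and 1.28 (limma adjusted p at most 0.00022). Erbb2 was called higher in both contrasts (limma adjusted p at most 0.0021). It reached the array's median on no forebrain array and passed the filter through neurospheres and cord, so the size of that difference is not given. Met, on 1434447_at, was called lower in both contrasts. It reached the array's median on 0 of 22 neurosphere arrays and entered the test through forebrain alone, so the size of that difference is not given. Fgfr2's main probe set was below forebrain in heterozygous neurospheres (-0.92, adjusted p = 0.0059; lost without the forebrain of heterozygous embryo 3) and not called in null neurospheres (0.19, adjusted p = 0.54). Fgfr2 on 1420847_a_at was lower in heterozygous neurospheres (-0.63, adjusted p = 0.047), a call lost when any 1 of the 5 arrays was left out, without the filter and under both other scalings. Fgfr2 on 1443211_at was called lower in null neurospheres (limma adjusted p = 0.013), a call lost without the forebrain of null embryo 1. It reached the array's median on no untransduced neurosphere array and passed the filter through tissue, so the size of that difference is not given. Erbb3 on 1434606_at and all 5 Igf1r probe sets were not called in either contrast.

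Ntrk2 was split by probe set between culture and tissue. Of its 8 probe sets, 3 were far brighter in tissue: 1437560_at read 27.8 to 82.1 in the 22 neurosphere arrays and 1725 to 2758 in the 8 tissue arrays, 1458622_at read 12.6 to 255 and 2163 to 2837, and 1435305_at read 29.7 to 199 and 763 to 1266. They reached the array's median on 0, 3 and 1 of 22 neurosphere arrays and on 8 of 8 tissue arrays each, so they passed the filter through tissue. In heterozygous samples all 3 were called lower in neurospheres than in forebrain (limma adjusted p at most 3e-06), and the size of these differences is not given. The 3 probe sets that followed the Olig genotype went the other way in heterozygous samples: 1420838_at was higher by 0.79 (adjusted p = 0.0035), 1435196_at by 1.70 and 1420837_at, which reached the median on 0 of 8 tissue arrays, was called higher too. In null samples the main probe set was not called (-0.12, SE 0.18, adjusted p = 0.62), while 1435196_at (1.37) and 1420837_at (lost without the forebrain of null embryo 2) were. Hence the Ntrk2 differences between Olig groups were read on other probe sets, and those that were far brighter in tissue did not pass the filter among neurospheres. The sources used here do not place these probe sets on the full-length or the truncated Ntrk2 transcript. A seventh probe set, 1446712_at, read 106 to 338 in neurospheres, correlated with the main one at 0.91 and was not called between genotypes (-0.39) or viruses (0.95, adjusted p = 0.061). It was below forebrain in heterozygous and null samples (-0.72 and -0.71), calls lost without any 1 of the 5 heterozygous arrays and without either null forebrain. The heterozygous call was also lost without the filter (adjusted p = 0.066), after quantile normalization (-0.51, 0.13) and with 75th percentile scaling (0.067), and the null call after quantile normalization (-0.49, adjusted p = 0.11). The eighth, 1444121_at, was not tested.

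Other genes of these pathways were taken from 9 lists of 100 genes in all, of which 93 have a probe set, read by the main one. In null against Olig-expressing cultures 76 were tested, 6 rose and 4 fell, beside 7.64% of all genes, and the median difference was -0.02. The EGF ligands (5 tested), neuregulins (2), FGF ligands (3) and the ligands of Met, Trk and IGF receptors (4) had 0 calls in limma in this comparison and in that of Olig2 with GFP virus in null lines. Among other receptor kinases, the insulin receptor Insr rose by 0.54, while Alk (-0.97) and the phagocytic receptor Mertk (-1.28) fell. Kit, the stem cell factor receptor, was called higher (limma adjusted p = 0.0034), with a mean signal of 429 in null cultures. Its means of 152 in wild-type and 148 in heterozygous cultures lay below the median of every array of those groups, so the size of that difference is not given. Of 13 pathway targets, the MAP kinase phosphatase Dusp4 rose by 1.94 (SE 0.27, limma adjusted p = 0.00042) and the Ras-MAPK inhibitor Spred1 by 0.51. Irs1, the docking protein of the insulin and IGF receptors, rose by 0.42, the insulin receptor adaptor Grb14 fell (-1.44, SE 0.22, adjusted p = 0.00094), and so did Igfbp7 (-1.12).

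In null lines with Olig2 against GFP virus, 75 of these genes were tested, 8 rose and 9 fell, beside 7.53% of all genes, with a median of -0.06. Of 13 pathway targets, 5 fell and 0 rose: Dusp4 (-3.61, SE 0.39, limma adjusted p = 0.00076), the cell cycle gene Ccnd1 (-1.04, SE 0.12), the phosphatase Dusp6 (-0.66), the ETS factor Etv5 (-0.60) and the feedback inhibitor Spry1 (-0.59, named after its value was seen). The mean Dusp4 signal was 1128 in wild-type, 1067 in heterozygous, 4487 in null, 5480 in null GFP and 454 in null Olig2 cultures. Irs1 (-0.79), Irs2 (-1.35) and the adaptor Gab2 (-0.71) fell, and the Ras inhibitor Nf1 rose (0.67). The mean Nf1 signal was 746 in null, 464 in null GFP and 739 in null Olig2 cultures, so that the GFP mean was the lowest of the 3. Among other receptor kinases Fgfr3 (2.03, SE 0.38), the collagen receptor Ddr2 (1.94), Axl (1.68) and Tyro3 (0.93) rose, as did Lrig1 (0.92), which promotes ErbB receptor turnover, and Igfbp5 (1.21). Of the listed genes, 4 were called in both comparisons, and they were picked out after their values were seen. Dusp4 (1.94 in null cultures, -3.61 with Olig2 virus) and Irs1 (0.42 and -0.79) rose and then fell, and Mertk (-1.28 and 1.15) fell and then rose. Kit was called higher in null cultures and fell with Olig2 virus (-0.94). These comparisons share no arrays but share lines 12, 13 and 14.

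In heterozygous neurospheres against forebrain 79 of the genes were tested, 33 rose and 13 fell, beside 50.1% of all genes, with a median of 0.23. Of 13 pathway targets, 11 rose, among them Etv5 (4.17, limma adjusted p = 1.6e-13), Spry1 (4.12), Dusp6 (3.99) and Spry2 (3.20). The 11 include Etv4 and Dusp5, whose mean signals in heterozygous forebrain, 64.8 and 40.8, lay below the median of either forebrain array. Both passed the filter through other samples, so no median size is given for the 13 targets. Igfbp2 rose by 3.31, while Igf2 fell (-2.68). Fgf1 was called higher too. Its mean signal in heterozygous forebrain, 110, lay below the median of either of these forebrain arrays, so the size of that difference is not given. Between cord and forebrain 70 were tested, 33 rose and 8 fell in cord, beside 39.2% of all genes and with a median of 0.36, among them Igf2 (2.66), the EGF receptor inhibitor Errfi1 (2.77) and Fgfr3 (1.87). In forebrain and in cord, 0 of 70 were called between genotypes by limma.

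Over the 22 neurosphere arrays, Ntrk2's main probe set correlated at -0.66 with that of Fgfr2, -0.58 with Fgfr1 and -0.57 with Igf1r, and Egfr with Fgfr1 at 0.51. Among the other probe sets, those most like Ntrk2 read Pdha1 (r = 0.941), Cx3cl1 (0.91) and Prkcb (0.89), and those most like Fgfr2 read Mras (0.874), Hopx (0.872) and Cplx2 (0.849). For Egfr they were 2 probe sets of Apcdd1 (0.866 and 0.849) and Ccni (0.834), for Fgfr1 Fndc3b (0.849), Sfmbt2 (0.843) and Nmnat2 (0.83), and for Igf1r Mier2 (0.84), Mtmr4 (0.825) and Stim2 (0.813). These are descriptions over arrays that share lines, treatments and scaling. Median deviations of the genes on the receptors' chromosomes lay between -0.08 and 0.05 on every neurosphere array.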

How the data were processed

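Total RNA of 22 neurosphere and 8 tissue samples was hybridised to Affymetrix mouse arrays. The values are the authors' deposited MAS5 signal intensities, 1 per probe set, and are called MAS5 in the submitters' processing notes. Values are on a linear scale, with a mean of 500 in each array after trimming 2% of values at each end. No depth applies, and the number of arrays limits precision. Of 45101 probe sets, 34958 had a single gene symbol, 932 several and 9211 none; the 64 controls were left out.

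Signals were analysed as log2(signal + 16) in limma 3.58.1 (R 4.3.3), by lmFit, contrasts and eBayes with a trend, separately for untransduced cultures, virus cultures, GFP with untransduced arrays, tissues, and cultures with tissues. Tests were two-sided, with Benjamini-Hochberg adjustment over all probe sets tested. The fit was tested on simulated data. All arrays share 1 hybridisation date in the labels, so no batch was fitted. Arrays of 1 line, or tissues of 1 embryo, are paired by origin. Correlations of the paired arrays' deviations ran from -0.13 to 0.09, and the main fit has no block. P-values measure the spread between lines or embryos only, and what makes lines independent is not stated.

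Each member's main probe set and its other called probe sets were described. From the pathway lists, called genes were named by smallest p. The members and lists were chosen with earlier results of these data known. Alternatives were other pseudocounts (1 and 64), no filter, other scalings, 1 probe set per gene, the line or embryo as a block, a Gapdh 3'/5' covariate and omission of each array. Figures were drawn with matplotlib.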

Additional observations from a re-analysis of the deposited data

Results flagged for a closer look

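Among the 6 null lines without further virus, 3 of the 25 groups of values examined held 1 array far from the others. On the Erbb4 probe set 1427783_at, line 13 read 7.8, below the other lines at 24.2 to 31.1, and this probe set reached the array's median nowhere. On Ntrk2 probe set 1435305_at, line 24 read 198.6, above the others at 29.7 to 92.5. On Ntrk2 probe set 1437560_at, line 16 read 82.1, above the others at 28.1 to 34.6. All 3 are dim signals that entered no comparison among neurospheres, and chance alone flags about 1 in 20 such groups.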

How the results depend on the processing

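No alternative turned the sign of a called value. Of the 77 member values followed, all 77 kept their side of the threshold with pseudocounts of 1 and 64, 69 without the filter, 73 after quantile normalization and 73 when scaled to the 75th percentile. With the line or embryo as a replicate block, Egfr 1435888_at (Olig2 against GFP, adjusted p = 0.06) and Erbb2 (cord against forebrain, 0.057) lost their calls, Igf1r 1452982_at (cord against forebrain, 0.045; 0.047 at the 75th percentile) gained one, and the block changed no other member call. Of probe sets called between heterozygous and wild-type cultures, the 2 became 0 without the filter and 4 after quantile normalization, and the 1 gene became 4 with 1 probe set per gene. For the difference of the Olig2 effect, 14 became 27 with pseudocount 64, 23 at the 75th percentile, 7 with the replicate block and 9 with the Gapdh covariate. That covariate left 405 of 2045 calls for Olig2 against GFP in null lines and 142 of 381 for null against heterozygous GFP cultures; untransduced arrays as the control, chosen after seeing the data, gave 1062 in place of 2045. GFP against untransduced gave 2, 1 at the 75th percentile and 0 with the replicate block, the tissue difference gave 1, 4 with pseudocount 64 and 0 with the block, and forebrain genes went from 3 to 5 with 1 probe set per gene. Members called by main probe set fell from 2 to 1 without the filter against wild-type and against heterozygous lines, fell from 3 to 1 for Olig2 against GFP with the Gapdh covariate and with the untransduced control, and went from 3 to 5 without the filter for cord against forebrain and for null neurospheres against forebrain. The cause was not tested.

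With each array left out, probe sets called ranged from 1248 to 1637 (null against Olig-expressing, 1693 with all arrays), 731 to 1374 (against wild-type, 1396), 339 to 723 (against heterozygous, 687), 0 to 14 (heterozygous against wild-type), 611 to 2118 (Olig2 in null lines), 0 to 1 (in heterozygous lines), 1 to 54 (their difference), 38 to 429 (null against heterozygous GFP) and 0 to 11 (GFP against untransduced). In tissue the ranges were 2 to 6 (forebrain), 3 to 9 (cord, 21 with all arrays), 0 to 6 (their difference) and 8234 to 8839 (cord against forebrain, 9763), and for neurospheres against forebrain 10901 to 12970 (heterozygous) and 10540 to 13737 (null). Members called by main probe set ranged, in the same order, from 3 to 4, 1 to 4, 0 to 2, 0 to 0, 1 to 2, 0 to 0, 0 to 1, 0 to 1, 0 to 0, 0 to 0, 0 to 0, 0 to 0, 1 to 4, 4 to 5 and 3 to 3. Another background correction could not be run on MAS5 values. Probe sets below the array's median were not tested, so dim receptors (Erbb4, Erbb3 and Met in culture) have no comparison there.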
